A study of Mus musculus with 4 samples.

Results

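Astrocyte homeostasis and glutamate uptake were followed through 10 genes in mouse spinal cord after injury of a spinal nerve. The genes are Aqp4, Slc1a2, Slc1a3, Gja1, Gjb6, Glul, Aldh1l1, Aldoc, Atp1b2 and Sox9. They were taken by the gene name that the array files give, which found 13 of 55681 probes and all 10 genes among 29303 genes and named transcripts tested. Gene expression was measured on 4 one-colour Agilent arrays, 1 for each mouse. All mice were male, of the outbred ICR strain and 8 weeks old, and the lumbar cord (L4 to L5 by the protocol) was taken 10 days after surgery. The SNL group (spinal nerve ligation, 2 mice) had a tight tie around the L5 spinal nerve, and the sham group (2 mice) had that nerve exposed without a tie. Whole cord segments hold every cell type of the cord, and the sources used here do not name the side that was taken.

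Astrocytes remove glutamate from the extracellular space. The transporters encoded by Slc1a2 (GLT-1) and Slc1a3 (GLAST) carry it into the cell with sodium, glutamine synthetase (Glul) turns it into glutamine, and the sodium pump, of which Atp1b2 encodes a glial beta subunit, restores the gradient that drives uptake. Gap junctions of connexin 43 (Gja1) and connexin 30 (Gjb6) join astrocytes into a network, and the water channel Aqp4 sits at their endfeet on vessels. Aldh1l1 (a folate enzyme), Aldoc (a glycolytic aldolase) and the transcription factor Sox9 are widely used astrocyte markers. Reduced glutamate uptake in the dorsal horn has been studied as a part of neuropathic pain, and the comparison of SNL with sham addresses whether transcripts of this system differ at day 10.

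Slc1a2 is the gene of the set for which the choice of probe mattered, since its 3 probes gave changes of different sign. They lie on the plus strand of chromosome 2 in the mm9 build that the array design uses, with no overlap, and probe 1 is the brightest and stands for the gene. The first 30 bases of each 60-base probe are shown so that the 3 targets can be told apart.
Slc1a2 probe 1, chr2:102617752-102617811: aagcaactctaatcagtgtgtctatgccgc
Slc1a2 probe 2, chr2:102622252-102622311: gtagaatgtttcagagtttcatgggtgccc
Slc1a2 probe 3, chr2:102626380-102626439: aacccagtttccagcattcagacatcagta
The longest run of bases that any pair of the full probes shares is 6. Probes 2 and 3 start 4500 and 8628 bases after probe 1. Their place relative to exons was not analysed here.

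None of the 10 genes passed the test. Levels below are log2 of the processed signal relative to the 75th percentile of each array, and changes are SNL minus sham on that log2 scale. In limma, adjusted p-values (Benjamini-Hochberg over all genes tested) of the 10 genes ran from 0.501 to 0.996, and unadjusted p-values from 0.101 to 0.982, so 0 were called at either threshold of 0.05. Of all genes tested, 0.171% were called at adjusted p under 0.05 and 12.1% had an unadjusted p under 0.05. None of the 10 changed by 2-fold at unadjusted p under 0.05, against 2.61% of all genes. Fitted changes ran from -0.19 for Aqp4 to 0.29 for Aldh1l1, or from 0.874-fold to 1.22-fold. The 95% confidence interval of each of the 10 changes held 0 and lay inside a 2-fold change in both directions, with outer bounds of 0.692-fold for Sox9 and 1.60-fold for Aldh1l1. In bulk tissue, fewer astrocytes and less RNA per astrocyte cannot be told apart.

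The median change over the 10 genes was 0.12, against 0.028 over all genes tested, and 8 of the 10 lay above 0, against 55% of all genes. The groups did not overlap for 7 of the 10, against 45.4% of all genes. Of these, 6 were higher in both SNL mice than in both sham mice, against 24.7% of all genes, and 1 was lower, against 20.7%. Among all genes with a mean level from 2 to 3, where 6 of the 10 lie, 44.8% were higher without overlap and 8.10% lower. At levels from 3 to 4, where Aldoc and Atp1b2 lie, these shares were 60.8% and 1.57%. SNL replicate 1 had the highest value of the 4 mice in 7 of the 10 genes, and SNL replicate 2 in 0.

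**Figure D1:**
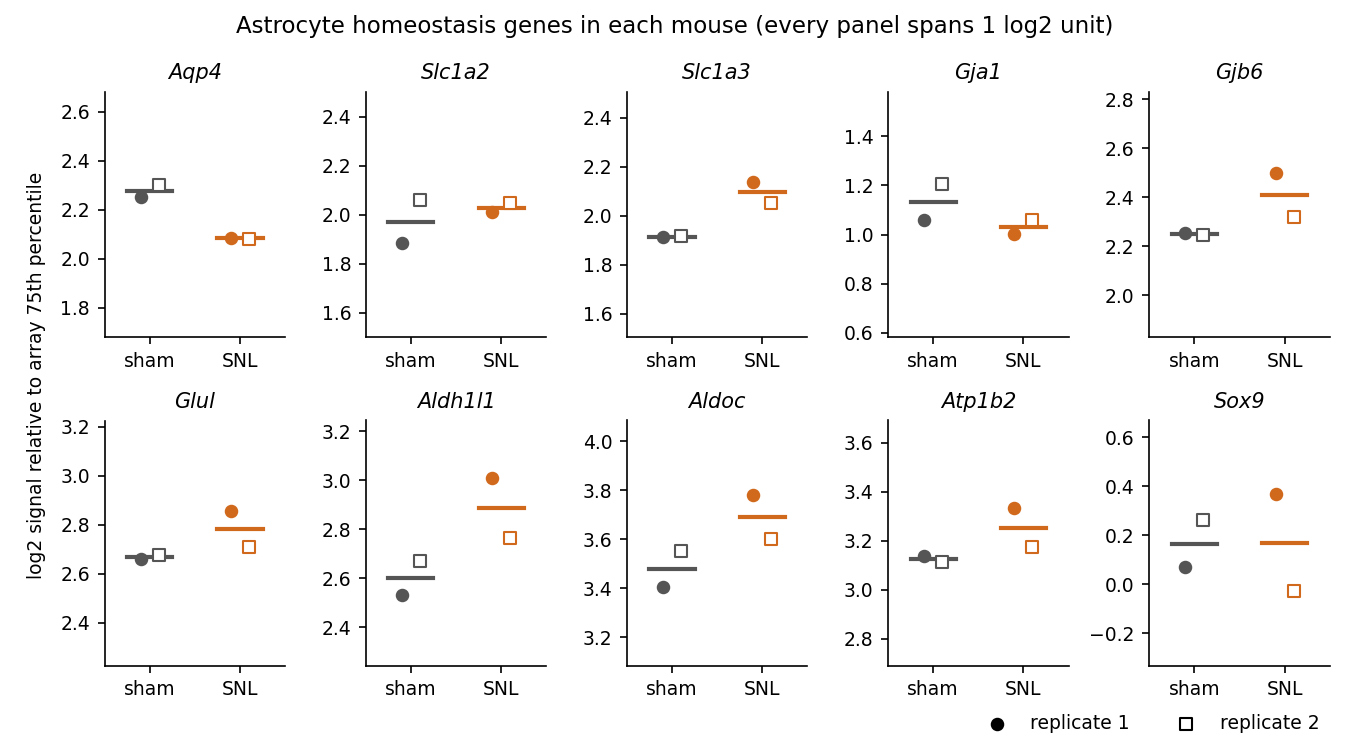
Level of each of the 10 genes in each mouse (vertical axis: log2 processed signal relative to the array's 75th percentile; circles replicate 1, squares replicate 2, bars group means, n = 2 per group). Every panel spans 1 log2 unit; Aqp4 is lower in both SNL mice, and SNL replicate 1 is the highest mouse in 7 of the 10 panels.

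All 13 probes were well above background on all 4 arrays, with mean processed signals from 5017 to 162447, and no spot was saturated on any array. The share of spots well above background was 81.9% to 82.1% on the sham arrays and 74.9% to 78.1% on the SNL arrays. Per the file headers, the 4 arrays lay on 1 slide in 1 scan. By the position numbers in those headers, the sham arrays lay in row 1 of the slide and the SNL arrays in row 2, so place on the slide and group cannot be told apart. Sham replicate 2 stood apart in a gene of peripheral myelin. Prx, a Schwann cell gene, was at -3.85 in that mouse and at 1.29 to 1.97 in the other mice. Over the 9 Schwann cell markers tested, the median change was 0.67, with -0.071 without sham replicate 2 and 1.1 without sham replicate 1. Without sham replicate 2, the median change over the 10 astrocyte genes was 0.13.

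Of the glutamate transporters, Slc1a3 was at 1.91 and 1.92 in the sham mice and at 2.14 and 2.05 in the SNL mice. Both SNL mice lay above both sham mice, and the change was 0.18 ± 0.093 (SE, n = 2 per group, limma adjusted p = 0.542), or 1.13-fold. Its probe lies on chromosome 15 (mm9 8584236 to 8584295). Slc1a2, read by probe 1, was at 1.88 and 2.06 in sham mice and at 2.01 and 2.05 in SNL mice. The groups overlapped, with a change of 0.057 ± 0.11 (adjusted p = 0.871 in limma) and a confidence interval from 0.835-fold to 1.30-fold.

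The other Slc1a2 probes, whose sequences are given above, did not move alike. Probe 2 was at 0.19 and 0.45 in sham mice and at 0.67 and 0.46 in SNL mice. The SNL mice lay above the sham mice, by a margin under 0.01 between the nearest pair, and the change was 0.24 ± 0.15. Probe 3, the dimmest, was at -0.61 and -0.72 in sham mice and at -1.24 and -0.89 in SNL mice. Here both SNL mice lay below both sham mice, with a change of -0.40 ± 0.16 and an unadjusted p of 0.0777 in limma. Within each array, probe 3 lay below probe 1 by a log2 difference of -2.50 and -2.79 in sham mice and of -3.25 and -2.94 in SNL mice. The groups did not overlap in this difference, which changed by -0.45 from sham to SNL. Probe 2 minus probe 1 was -1.69 and -1.61 in sham mice and -1.34 and -1.59 in SNL mice. The groups did not overlap there either, in the other direction, with a change of 0.18. For gene levels, groups did not overlap in 45.4% of all genes. With 2 mice per group the smallest p of an exact two-sided permutation test is 0.333, and that test was not run on either difference. With the mean of its probes, Slc1a2 was at -0.033, and read by probe 1 it was at -0.032 without sham replicate 1 and 0.15 without sham replicate 2.

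**Figure D2:**
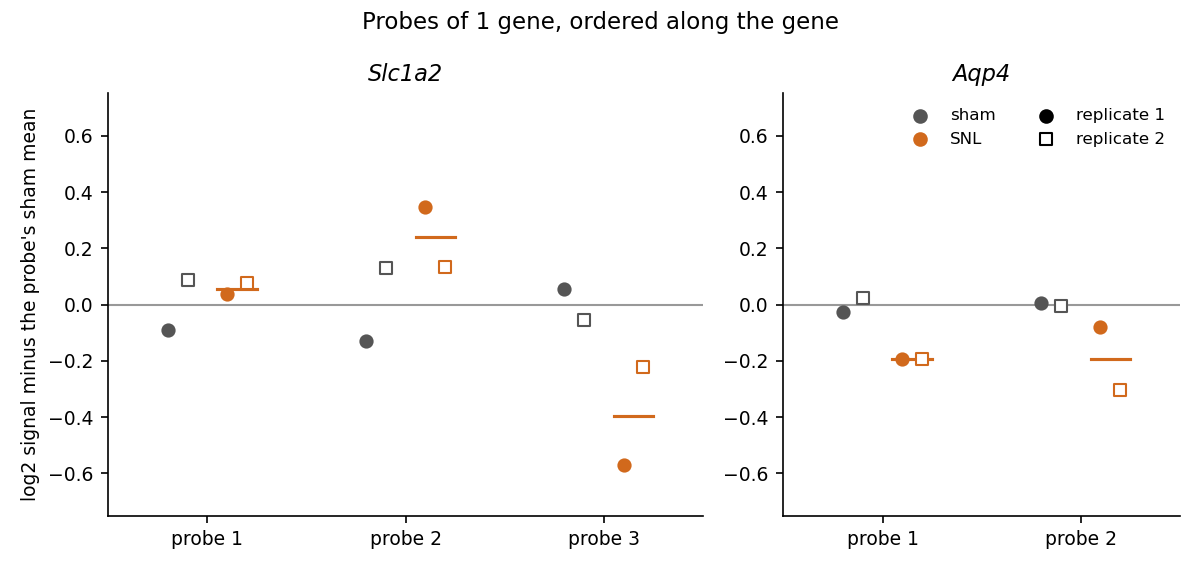
Probes of Slc1a2 and Aqp4, the members with several probes, in order along the gene (vertical axis: log2 signal minus the probe's sham mean; grey sham, orange SNL, circles replicate 1, squares replicate 2, orange bars the SNL means). The 3 Slc1a2 probes change by 0.057, 0.24 and -0.40, while both Aqp4 probes change by -0.19.

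Glul, whose enzyme turns the captured glutamate into glutamine, was at 2.66 and 2.68 in sham mice and at 2.86 and 2.71 in SNL mice. Both SNL mice were above the sham mice, but the second by little, and the change was 0.11 ± 0.10 (limma adjusted p = 0.713). Atp1b2, which supplies the pump's beta subunit, was at 3.14 and 3.11 in sham mice and at 3.33 and 3.17 in SNL mice. The pattern was that of Glul, with 1 SNL mouse clearly above and the other close to sham, and the change was 0.13 ± 0.11 (adjusted p = 0.689 in limma). Without SNL replicate 1 Glul was at 0.040 and Atp1b2 at 0.048. With quantile normalization both genes turned sign, to -0.014 and -0.028.

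The connexin genes were at opposite signs. Gjb6 was at 2.25 in both sham mice and at 2.50 and 2.32 in SNL mice, a change of 0.16 ± 0.11 (limma adjusted p = 0.638) with no overlap of the groups. Without SNL replicate 1 its change was 0.068. Gja1 was at 1.06 and 1.21 in sham mice and at 1.00 and 1.06 in SNL mice, with overlapping groups and a change of -0.10 ± 0.11 (limma adjusted p = 0.743). The overlap was narrow, with sham replicate 1 at 1.0586 and SNL replicate 2 at 1.0591. Without sham replicate 2 Gja1 was at -0.029, and without sham replicate 1 at -0.18.

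Gja1 is printed as 10 spots on each array, which gives a measure of spot error. Of these, 4 and 5 spots were marked as outliers on the sham arrays and 0 and 3 on the SNL arrays, and these were left out. The SD between single spots kept was 0.12 and 0.039 on the sham arrays and 0.13 and 0.10 on the SNL arrays. Each mouse value is a mean over 5 to 10 kept spots, so its spot error is smaller than that SD. The SD between mice was 0.10 in sham and 0.042 in SNL. With the marked spots kept, the change was -0.12, and with the median of the spots -0.093. In both cases the groups no longer overlapped, with both SNL mice below both sham mice. With the marked spots kept, the sham mice were at 1.14 and 1.19 and the SNL mice at 1.00 and 1.09.

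Aqp4, on chromosome 18, was the member with the lowest fitted change. Its brighter probe was at 2.25 and 2.30 in sham mice and at 2.08 in both SNL mice. The 2 SNL mice lay together below the sham mice, and the change was -0.19 ± 0.089 (limma adjusted p = 0.501), with a confidence interval from 0.732-fold to 1.04-fold. The second probe was at 2.08 and 2.07 in sham mice and at 2.00 and 1.77 in SNL mice, a change of -0.19 ± 0.12, again with no overlap. With quantile normalization the 2 probes were at -0.25 and -0.24. With normexp background correction they parted, at -0.30 and -0.019. With 1 mouse left out the brighter probe ran from -0.22 to -0.17.

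Among the marker genes, Aldh1l1, which encodes an enzyme of folate metabolism, had the highest fitted change. It was at 2.53 and 2.67 in sham mice and at 3.01 and 2.76 in SNL mice. Both SNL mice were above the sham mice, SNL replicate 1 by the larger margin, and the change was 0.29 ± 0.14 (limma adjusted p = 0.515), or 1.22-fold. Without SNL replicate 1 the change was 0.16, and with quantile normalization 0.16 as well. Aldoc, the brain aldolase gene, was at 3.41 and 3.55 in sham mice and at 3.78 and 3.60 in SNL mice. The groups did not overlap, with a change of 0.21 ± 0.12 (adjusted p = 0.583 in limma), which was 0.060 with quantile normalization, 0.10 with normexp correction and 0.12 without SNL replicate 1.

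Sox9 was at 0.069 and 0.26 in sham mice and at 0.37 and -0.029 in SNL mice. The SNL mice were the highest and the lowest of the 4, and the change was 0.0045 ± 0.19 (adjusted p = 0.996 in limma), the widest SE of the set. Sox9 too has 10 spots on each array, of which 9 or 10 were kept. With the spots marked as outliers kept, sham replicate 1 was the lowest mouse, at -0.083, and the change was 0.070. The spots kept ran from 0.099 to 0.55 in SNL replicate 1 and from -0.13 to 0.10 in SNL replicate 2. The SD between these single spots was 0.15 and 0.072, and the spot error of a mouse value, a mean over its spots, is smaller. The SD between the 2 SNL mice was 0.28. The sign turned when a mouse was left out, with -0.092 without sham replicate 1 and -0.19 without SNL replicate 1.

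**Figure D3:**
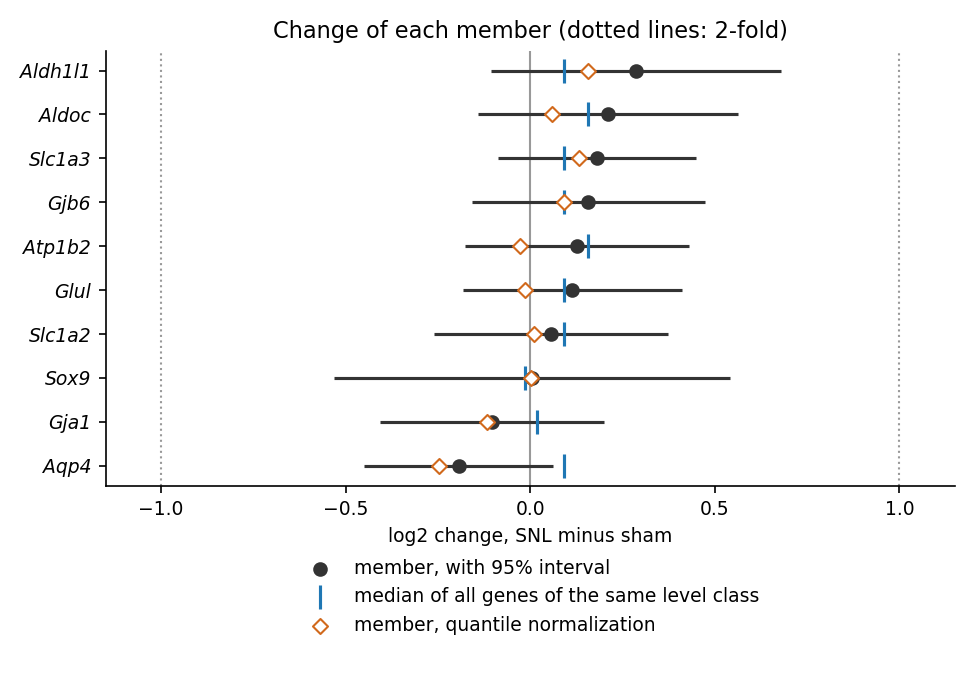
Fitted change of each gene (horizontal axis: log2, SNL minus sham; points with 95% confidence intervals from limma, n = 2 per group; dotted lines at a 2-fold change). Blue ticks mark the median change of all genes in the same level class and orange diamonds the change with quantile normalization; every interval holds 0 and none reaches a dotted line.

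Bright genes as a whole leaned above 0 in SNL, and 9 of the 10 members are brighter than the 75th percentile by over 1 log2 unit. Among 2752 genes with a mean level from 2 to 3, where 6 members lie, 76.2% were above 0 and the median change was 0.090. Among 766 genes at levels from 3 to 4, where Aldoc and Atp1b2 lie, 89.2% were above 0 and the median was 0.16. Among 3638 genes at levels from 1 to 2, the class of Gja1, the median was 0.018, and among 3389 genes at levels from 0 to 1, the class of Sox9, it was -0.015. In the class from 3 to 4 the median was 0.22 above the sham mean in SNL replicate 1 and 0.089 in SNL replicate 2.

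Set against the median of its own level class, a comparison chosen after the data were seen, 6 members lay above and 4 below, with a median difference of 0.022. Aldh1l1 lay above its class by 0.20 and Slc1a3 by 0.091, while Gjb6, Glul, Aldoc and Sox9 lay within 0.07 above. Aqp4 lay below its class by a difference of -0.28 and Gja1 by -0.12, with Slc1a2 at -0.034 and Atp1b2 at -0.031. Slc1a2 sits at the lower edge of its class, with group means of 1.97 in sham and 2.03 in SNL. Its change of 0.057 is above the median of 0.018 in the class from 1 to 2. With quantile normalization the class medians were 0.00077 and 0.012 for levels from 2 to 3 and from 3 to 4, and the median over the 10 members was 0.0064, with 6 of 10 above 0. Quantile normalization gives all arrays the same distribution of values, so class medians near 0 at these levels are largely set by the method.

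**Figure D4:**
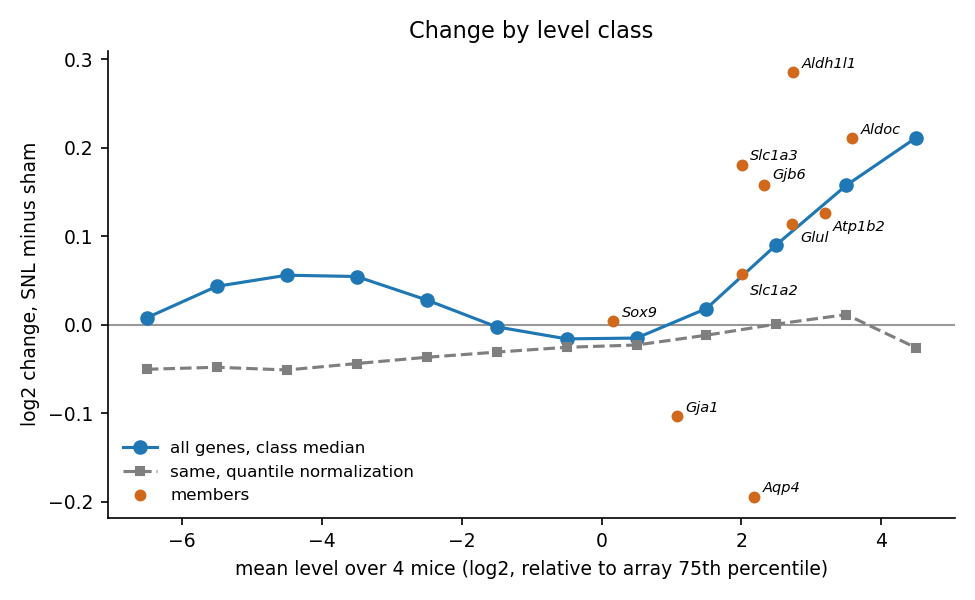
Median change of all genes by level class (blue line; horizontal axis: mean level over 4 mice, log2 relative to the array's 75th percentile; vertical axis: log2 change, SNL minus sham) and the same with quantile normalization (grey dashes), with the 10 members as orange points. The class median is 0.16 at levels from 3 to 4 and 0.21 at levels from 4 to 5, where no member lies, and Aqp4 lies farthest below its class.

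Other genes of the same pathways and markers of cell types were described by list, and the lists were chosen with earlier results of these data known. Of 18 other glutamate and glutamine genes, 0 were called, and the median change was -0.041. By unadjusted p under 0.05 in limma, 2 were higher and 2 lower, against 6.67% and 5.48% of all genes. The higher ones were Slc1a7, a retinal-type transporter, at 2.26 ± 0.36 (adjusted p = 0.187) and Slc1a5, a neutral amino acid carrier, at 1.24 ± 0.35 (adjusted p = 0.345). Slc1a7 was dim, with levels of -6.28 and -7.14 in sham mice and -4.26 and -4.65 in SNL mice. The lower ones were the glutamine carriers Slc38a5 at -0.67 ± 0.17 and Slc38a3 at -0.45, the latter named after its value was seen. The neuronal transporters Slc1a1 and Slc1a6 were at -0.12 ± 0.13 and 0.034 ± 0.15, and Slc1a4 was at -0.064.

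Among 16 connexins and pannexins tested of 21 listed, 0 were called and the median was -0.026. Panx1, which forms large-pore channels, was at 0.39 ± 0.11 and Gjd2, the neuronal connexin 36 gene, at -0.41 ± 0.11, with adjusted p of 0.335 and 0.341 in limma. Gjb2, whose connexin 26 is also found in astrocytes, was at 0.28 ± 0.27, and Gjb1, the connexin 32 gene of oligodendrocytes and Schwann cells, at -0.078 ± 0.093. Of 12 other sodium pump genes, 0 were called and the median was 0.13. The beta subunit genes Atp1b1 and Atp1b3 were at 0.14 ± 0.10 and 0.13 ± 0.15, with Atp1b3 fitted on 3 mice because its spot in SNL replicate 2 was left out as an outlier. The regulator Fxyd5 was at 1.05 ± 0.25 (limma adjusted p = 0.290).

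Of 16 water, potassium and endfoot genes 0 were called, with a median of 0.010. Kcnj10, the potassium channel that accompanies Aqp4 at endfeet, was at 0.18 ± 0.099, the aquaporin gene Aqp9 at -0.54 ± 0.10 and the endfoot scaffold gene Dtna at 0.23 ± 0.096 (limma adjusted p from 0.232 to 0.564). Aqp9 was dim, with levels of -6.25 and -6.21 in sham mice and -6.69 and -6.84 in SNL mice. For 25 genes of glycolysis, glycogen and lactate the median was 0.12 with 0 called, close to that of the 10 members. Hk2, a hexokinase gene, was at 1.16 ± 0.21 (limma adjusted p = 0.214), and Aldoa, the muscle-type aldolase gene, at 0.29 ± 0.13. For 16 folate genes the median was -0.013 with 0 called, and Aldh1l2, the mitochondrial relative of Aldh1l1, was at -0.27 ± 0.19. Shmt1, which makes serine and glycine, was at 0.76 ± 0.23 (limma adjusted p = 0.361). For 7 carriers and enzymes of other transmitters the median was 0.13 with 0 called, and the changes ran from -0.39 to 0.73.

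Astrocyte transcription factors other than Sox9 had a median of -0.16 over 18 genes, with 4 above 0 and 0 called. By unadjusted p under 0.05 in limma, 3 were lower and 0 higher, against 5.48% and 6.67% of all genes. Nfia, which drives glial fate, was at -1.28 and -1.17 in sham mice and at -1.98 and -1.95 in SNL mice. Both SNL mice lay well below, and the change was -0.74 ± 0.095 (limma adjusted p = 0.152). Nkx6-1 was at -0.55 ± 0.12 (limma adjusted p = 0.258), and the Sox9 relatives Sox2 and Sox8 were at -0.21 ± 0.096 and -0.17 ± 0.11.

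General astrocyte identity genes had changes from -0.49 to 0.62. Over 29 genes tested the median was 0.044, with 18 above 0 and 0 called. By unadjusted p under 0.05 in limma, 3 were higher and 2 lower, against 6.67% and 5.48% of all genes. Gfap was at 0.060 ± 0.096 and S100b at -0.043 ± 0.12, and all 4 arrays read both well above background, as they did each member. Prodh, a proline-degrading enzyme gene, was at 0.62 ± 0.090 (limma adjusted p = 0.168) and Ttpa at -0.49 ± 0.097. In the reactive astrocyte list 28 of 31 genes lay above 0, against 55% of all genes, with a median of 0.65. By unadjusted p under 0.05 in limma, 13 were higher and 0 lower, against 6.67% and 5.48% of all genes, while 0 were called. Serpina3n, a protease inhibitor gene of reactive astrocytes, was at 0.54 and 0.40 in sham mice and at 1.75 and 1.66 in SNL mice (limma adjusted p = 0.0919). Without sham replicate 2 the reactive median was 0.35, beside a median of 0.13 over the members and 0.36 for Aldh1l1, the highest member. The reactive median was 0.77 without sham replicate 1, 0.63 without SNL replicate 1 and 0.73 without SNL replicate 2.

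**Figure D5:**
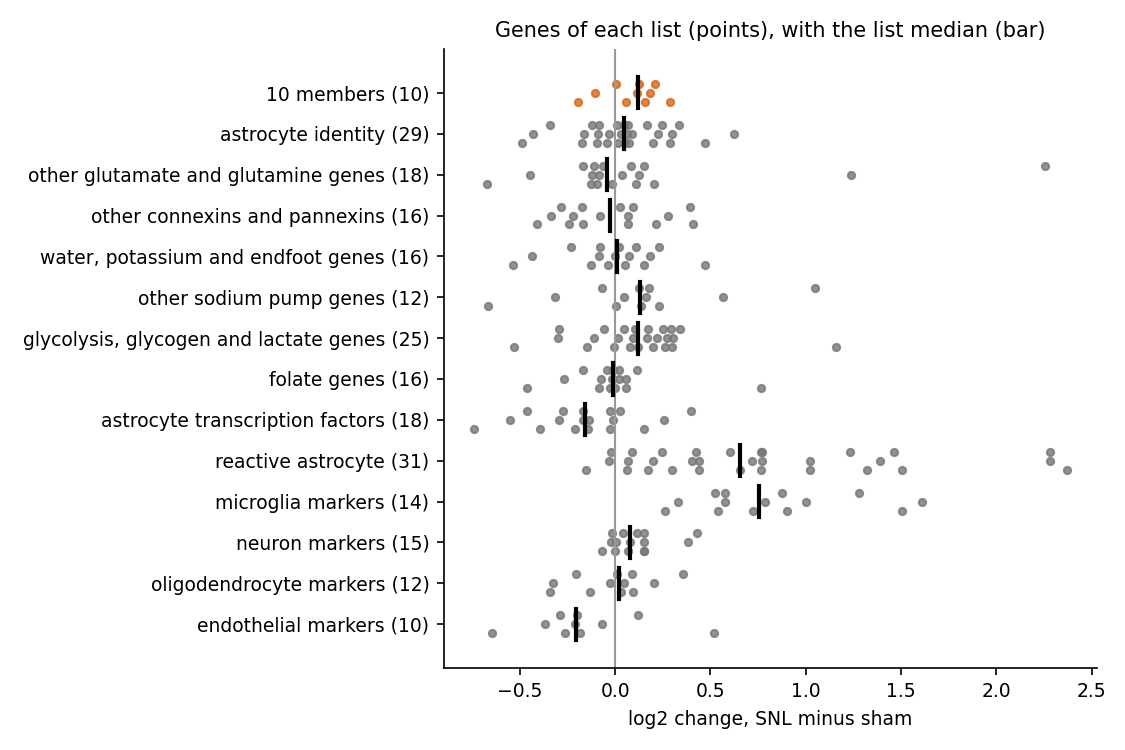
Change of every tested gene in the 10-gene set and in 13 lists (horizontal axis: log2, SNL minus sham; points are genes, black bars list medians, number tested in brackets). The 10 genes lie between -0.19 and 0.29, while the reactive astrocyte and microglia lists have medians of 0.65 and 0.75.

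Markers of other cell types were measured beside the members. All 14 microglia markers lay above 0, against 55% of all genes, with a median of 0.75. Their median level was 1.48 and 1.52 in sham mice and 2.02 and 2.25 in SNL mice. Neuron markers had a median change of 0.076 over 15 genes, oligodendrocyte markers 0.019 over 12, ependymal markers 0.044 over 9 and endothelial markers -0.21 over 10. The ependymal median was -0.42 without sham replicate 1, 0.84 without sham replicate 2 and 0.50 without SNL replicate 1, and the endothelial median was -0.13 without sham replicate 1. Of the 10 motor neuron markers 2 were called, Chodl and Mnx1, both lower, against 0.0102% of all genes called lower. The median of these markers was -0.27, or -0.17 without sham replicate 1. Mnx1 was well above background on 2 of the 4 arrays, at -2.80 and -3.16 in sham mice and at the dim levels of -7.05 and -7.26 in SNL mice. The filter asks for 2 arrays, so a gene can pass it through the group where it is high. With quantile normalization, with any 1 mouse left out and with the replicate block, 0 genes were called lower in limma over all genes tested, while 2218 to 4142 genes passed an unadjusted p of 0.05 in either direction. The part of these cell types in the members' values was not tested.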

How the data were processed

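Total RNA of each mouse was labelled with Cy3 and hybridised to an Agilent array, per the labels' protocols. The deposited scanner files hold spot intensity on a linear scale, as Feature Extraction (version 10.7.3.1 per the file headers, 10.7.1.1 per the submitters' processing notes) gives it. Probe positions refer to mm9. The authors deposited a log2 table too, used as an alternative. Its columns followed the scanner values (r = 1), shifted by -0.132 to -0.122, and over which spots the authors took that shift stays unknown.

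Each array was scaled to the 75th percentile of the processed signal of its 59305 non-control spots, and log2 was taken. Outlier spots were left out, and spots of 1 probe averaged. Probes took current symbols through accession, symbol or synonym in a RefSeq table (GRCm38). A probe was tested if well above background on at least 2 arrays, and the brightest stood for its gene. The groups were compared in limma 3.58.1 (R 4.3.3, lmFit and eBayes, no covariate), checked on simulated data. There were 2 residual degrees of freedom, and the prior added 1.65. Precision is set by the number of arrays (2 per group), and the median SE was 0.13. Per the labels' protocols each array is a separate mouse.

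The 10 members and the 17 lists (272 genes, 264 tested) were chosen with earlier results of these data known. Named genes are the members, relatives by family, the 2 genes of a list with the smallest p whose groups did not overlap (not all printed) and defining markers. Some genes of the lists are not reported here. Same-numbered mice did not deviate together (r = -0.027 across genes, which are not independent), so no pairing was used. Alternatives were normexp background correction (offset 50), quantile normalization, no filter on dim probes, the mean of probes, the deposited table, a variance trend, file gene names, a replicate block and each mouse left out. The block for slide or scan was not run, with 1 slide and 1 scan.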

Additional observations from a re-analysis of the deposited data

How the results depend on the processing

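In each of 12 alternatives, 0 of the 10 members were called, with adjusted p of 0.257 or above in limma. By unadjusted p under 0.05, 1 was higher and 1 lower with normexp correction, 2 and 1 with trended variance, and 0 and 1 with quantile normalization. Of all 29303 genes tested, 4963, 4297 and 4142 passed that threshold in these settings, in either direction. The members' median of 0.12 moved to 0.0064 with quantile normalization, and to 0.058 to 0.20 with 1 mouse left out. Over all genes, the 47 higher and 3 lower became 119 and 14 with normexp correction, 11 and 0 with quantile normalization, 1137 and 88 with no filter on dim probes, and 422 and 117 with trended, robust variance estimates. With 1 mouse left out, 0 were called in either direction, as with the replicate block, where 2828 had an unadjusted p under 0.05. Signs turned for Glul (-0.014) and Atp1b2 (-0.028) with quantile normalization, for Slc1a2 with the mean of its probes (-0.033) and without sham replicate 1 (-0.032, against 0.15 without sham replicate 2), and for Sox9 without sham replicate 1 (-0.092) and without SNL replicate 1 (-0.19). Minus the median of the astrocyte identity list Sox9 was at -0.040, and minus the level class, added after seeing the data, Slc1a2 was at -0.034 and Atp1b2 at -0.031. The cause was not tested. Aqp4, Slc1a3, Gja1, Gjb6, Aldh1l1 and Aldoc kept their sign in all 12. With 2 mice per group, changes of the members' size could not be told from 0.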
